A study of Homo sapiens with 30 samples.

Results

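Day 6 of cardiac differentiation (D6), the cardiac progenitor step, was set against the day before (D5) in cultures of H7, a human embryonic stem cell line. It rests on 4 of the 30 libraries of the series, 2 at D6 and 2 at D5. D6 and D5 cells had shared the whole protocol up to D5: 12 µM of CHIR99021, a GSK3 inhibitor that activates WNT signalling, for 24 hours, then 5 µM of IWP4, a WNT inhibitor, for 2 days, in RPMI1640 with B27 lacking insulin, and then RPMI1640 with B27. If these steps followed one another without a gap, both time points lay in the last medium. The cells were neither sorted nor purified, so each value is an average over a mixed dish, and no label tells whether R1 and R2 were separate cultures. Total RNA (500 ng) was freed of ribosomal RNA, amplified for 10 cycles and read as pairs of 100 nt. The authors deposited a single FPKM column for each time point (fragments normalised to transcript length and library depth), with no value for either library on its own. No difference below therefore has a replicate check, a spread or a test, and the depth of each library is unknown. Genes with at least 5 FPKM at D6 or D5 are called measured, 11344 of 41495 entries, of which 9760 are protein-coding. A gene is called higher or lower where log2(FPKM + 1) differed by at least 1, which is 2-fold on that scale and understates the change of genes with low values.

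In the early heart, cardiac progenitors switch on a set of transcription factors (NKX2-5, GATA, T-box, HAND and MEF2 proteins) that act together on the promoters of muscle genes. Sarcomere proteins then form thick filaments of myosin and thin filaments of actin with troponin, anchored at the Z-disc. Calcium released from the sarcoplasmic reticulum starts each contraction by binding troponin C. In directed differentiation, WNT signalling first makes mesoderm and must then be blocked for cardiac fate to follow.

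The D6 cultures carried more RNA of many heart muscle genes than the D5 cultures, and D8 too stood above D5 for nearly all of these. MYH6, the alpha myosin heavy chain of atrial and embryonic heart muscle, had 123 FPKM at D6 against 14.3 at D5. NKX2-5, the homeobox factor that marks cardiac progenitors, had 29.8 FPKM at D6 against 3.09 at D5. Among protein-coding genes, 115 were higher at D6 (1.18% of those measured) and 246 were lower (2.52%). Over all measured entries, 186 (1.64%) were higher and 546 (4.81%) lower. D8 is said to keep a difference where it lay at least 2-fold from D5 in the same direction, and to keep it in part where it lay less far on that side. Both the call and the D8 reading rest on the same single D5 value. An error in that value would therefore make D8 appear to keep the difference, so keeping is no independent check of a call. RNU6-930P, a small RNA entry at 21644 FPKM at D5 and at 0 in every other column, counts as kept. D8 stayed at least 2-fold above D5 for 98 of the 115 higher protein-coding genes, but at least 2-fold below it for 118 of the 246 lower ones.

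These counts depend on how the columns are scaled. The median difference over protein-coding genes was 0.12 on the log2 scale, and 60.7% of them lay above 0. Where each column was rescaled to bring the median ratio to D5 to 1, which lowers D6 by 0.15, 71 protein-coding genes were higher and 391 lower, and over all entries 135 were higher and 729 lower. Where each column was divided by its summed protein-coding FPKM, 60 were higher and 477 lower, and over all entries 122 were higher and 841 lower. All differences below are on the scale as deposited and can be read against the median of 0.12. Of the 115 higher genes, 49 had under 5 FPKM at D5 and so were measured through D6 alone, and 118 of the 246 lower genes had under 5 FPKM at D6. RNA from fewer cells of a type and less RNA per cell cannot be told apart in these bulk samples.

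**Figure D1:**
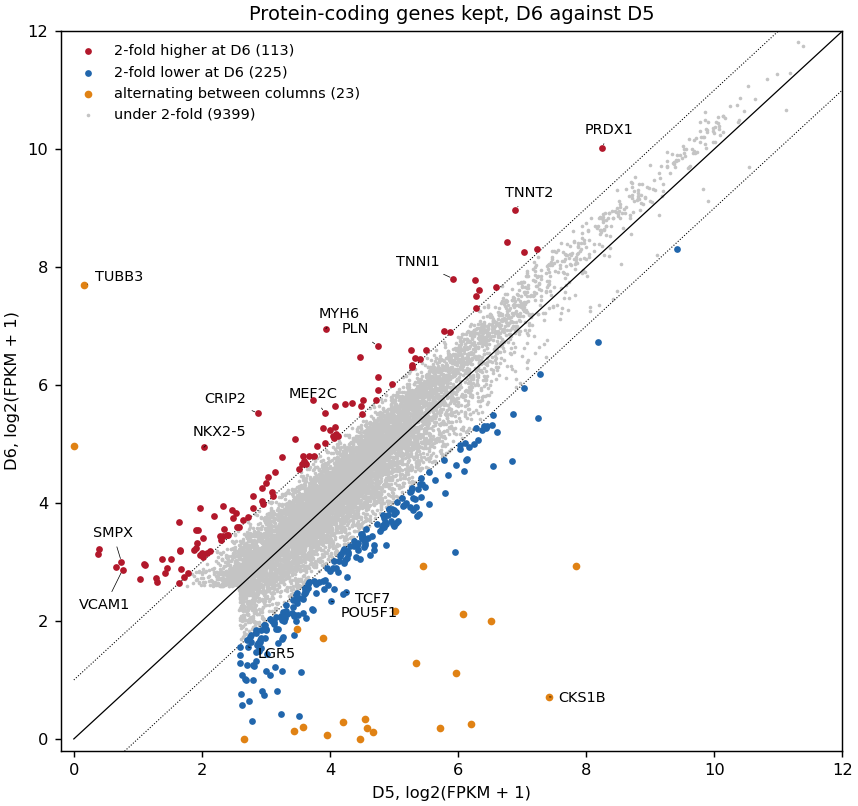
D6 (vertical axis) against D5 (horizontal axis) in log2(FPKM + 1) for the 9760 protein-coding genes measured; the solid line marks equal values and the dotted lines 2-fold. MYH6, NKX2-5, TNNT2 and other heart genes lie above the upper dotted line, and the 23 orange points are genes whose values alternate between columns of the table.

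Promoter sequences are shown for 3 of the leading muscle genes, as background to the cardiac factors named above. Whether those factors acted on these genes here was not tested. The sequences are RefSeq's (GRCh38.p14), 250 bases before to 50 after each gene's start, written 5′ to 3′ in the direction of the gene; NKX2-5 is named only. Capitals mark TATAAA in MYH6 and TTATCT, the reverse complement of the GATA factor letters AGATAA, in TNNT2 and PLN.
MYH6, chr14:23408224-23408523, minus strand: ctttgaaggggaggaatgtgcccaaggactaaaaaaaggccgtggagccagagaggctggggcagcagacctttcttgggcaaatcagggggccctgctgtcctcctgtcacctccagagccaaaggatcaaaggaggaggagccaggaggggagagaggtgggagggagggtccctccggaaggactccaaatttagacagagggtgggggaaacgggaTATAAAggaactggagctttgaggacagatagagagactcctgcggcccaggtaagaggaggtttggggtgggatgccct
TNNT2, chr1:201377631-201377930, minus strand: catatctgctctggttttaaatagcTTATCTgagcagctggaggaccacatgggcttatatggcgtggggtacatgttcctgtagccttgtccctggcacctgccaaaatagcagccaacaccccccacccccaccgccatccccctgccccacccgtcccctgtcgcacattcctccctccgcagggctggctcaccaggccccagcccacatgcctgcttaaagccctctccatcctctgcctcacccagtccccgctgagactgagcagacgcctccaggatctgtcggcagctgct
PLN, chr6:118548046-118548345, plus strand: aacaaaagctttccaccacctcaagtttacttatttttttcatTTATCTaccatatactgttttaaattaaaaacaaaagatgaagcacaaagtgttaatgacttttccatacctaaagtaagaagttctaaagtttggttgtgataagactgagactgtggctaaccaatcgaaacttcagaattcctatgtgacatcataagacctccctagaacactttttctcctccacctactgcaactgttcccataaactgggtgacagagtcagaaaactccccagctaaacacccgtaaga

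RefSeq promoters matched 75 of the 115 higher genes, 189 of the 246 lower genes and 7898 of the 9760 measured protein-coding genes. The letters AGATAA, searched on both strands, were in 13 of the 75 promoters of higher genes (17.3%). They were in 5.29% of the promoters of lower genes, 4.55% of those of all measured protein-coding genes and 10.5% of all 27305 promoters in RefSeq's set. The NKX2-5 letters TNAAGTG were in 8% of the promoters of higher genes and 6.56% of those of measured genes. For lower genes and all promoters the shares were 8.47% and 10.3%. The T-box letters AGGTGT were in 4.00% of the promoters of higher genes and 8.09% of those of measured genes. Their shares for lower genes and all promoters were 8.47% and 11.4%. The E-box CANNTG was in 68.0% of the promoters of higher genes and 58.1% of those of measured genes. It was in 62.4% of the promoters of lower genes and 68.9% of all promoters. The CArG box of serum response factor was in 3 of the 75 promoters of higher genes (4.00%) and 1.06% of those of measured genes. The MEF2 box was in 4 of the 75 (5.33%) and in 1.39%. Among lower genes and all promoters, the CArG box was in 1.06% and 1.29%, and the MEF2 box in 1.59% and 3.09%. TATAAA, added to the search after the values had been seen, was in 16% of the promoters of higher genes, 12.2% of those of lower genes, 4.91% of those of measured genes and 12.0% of all promoters. TNAAGTG and CANNTG can overlap. A match is a description of the letters in this window and was not set against binding data. Of the 20 largest increases outside the alternating entries described further on, 11 had a promoter in this set. TNNT2 and PLN, both printed above, were the 2 of these 11 with AGATAA. The printed MYH6 promoter had no match to the GATA, NKX2-5, T-box, CArG or MEF2 letters.

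The leading protein-coding increases were described one by one with their time course. Among the 20 largest, TUBB3 and NDUFA7 belonged to the entries that alternate between columns, described further on. D8 kept the other 18. MYH6 had 0.819, 14.3, 123 and 355 FPKM at D4, D5, D6 and D8, and so led with a D6-minus-D5 difference of 3.02. Its close copy MYH7, the beta heavy chain, was at 0.758 FPKM at D6 against 0.101 at D5, below the threshold of 5; how the authors' counting divided reads between such copies is not given in the sources used here. NKX2-5 had 0.944, 3.09, 29.8 and 50.9 FPKM at D4, D5, D6 and D8 (difference 2.91). TNNT2, cardiac troponin T of the thin filament, had 28.7, 118, 502 and 867 FPKM (2.08). The MYH6 value at D8 was more than 2-fold above that at D6, whereas those of NKX2-5 and TNNT2 were less than 2-fold above it.

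Genes outside the contractile apparatus stood beside them. CRIP2, a LIM protein of the cardiovascular system, had 6.77, 6.35, 44.9 and 64.6 FPKM at D4, D5, D6 and D8 (difference 2.64). VCAM1, an adhesion molecule used as a surface marker of cardiomyocyte progenitors, had 0.423, 0.696, 6.30 and 13.7 FPKM (2.11). CRHBP, which binds corticotropin-releasing hormone, had 0.299, 0.311, 8.36 and 23.9 FPKM (2.84). All of these were flat or nearly so between D4 and D5 and stood higher from D6 on. TRH, the precursor of thyrotropin-releasing hormone, had 0.722, 0.297, 7.80 and 15.4 FPKM (2.76). SHISA2, a member of a family that in frogs holds back WNT and FGF receptors, had 6.04, 21.1, 88.0 and 63.8 FPKM (2.01). IGFBP7, a secreted IGF-binding protein, had 10.7, 12.3, 52.8 and 78.5 FPKM (2.02). PRDX1, a peroxidase found in most cells, had 408, 304, 1037 and 1160 FPKM (1.76), and its D3 value was 1037, so D4 and D5 lay below both sides. FAM19A4, a secreted chemokine-like protein, had 11.8 FPKM at D6 against 2.12 at D5, and GCOM1, an entry that overlaps its neighbours, 6.68 against 1.16. The others of the 18 are the muscle genes given below.

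Not every increase lasted. CGA, the common alpha subunit of the glycoprotein hormones, had 0.592, 2.74, 10.7 and 1.77 FPKM at D4, D5, D6 and D8, and is the 1 gene outside the alternating entries that turned back to or below its D5 level. D8 kept 14 genes in part, among them LPL (lipoprotein lipase), with 8.15 FPKM at D6 against 2.15 at D5 and 3.93 at D8. CORIN, the protease that processes natriuretic peptide precursors, had 7.73 FPKM at D6 against 2.91 at D5 and 5.43 at D8. In all, 15 of the 115 higher genes stood at least 2-fold above D6 again at D8, 90 remained 2-fold above D5 at D10, and 96 were 2-fold above D4 as well. In purified cardiomyocytes of day 31, 43 of them were at least 2-fold above D6 and 23 at least 2-fold below it.

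**Figure D2:**
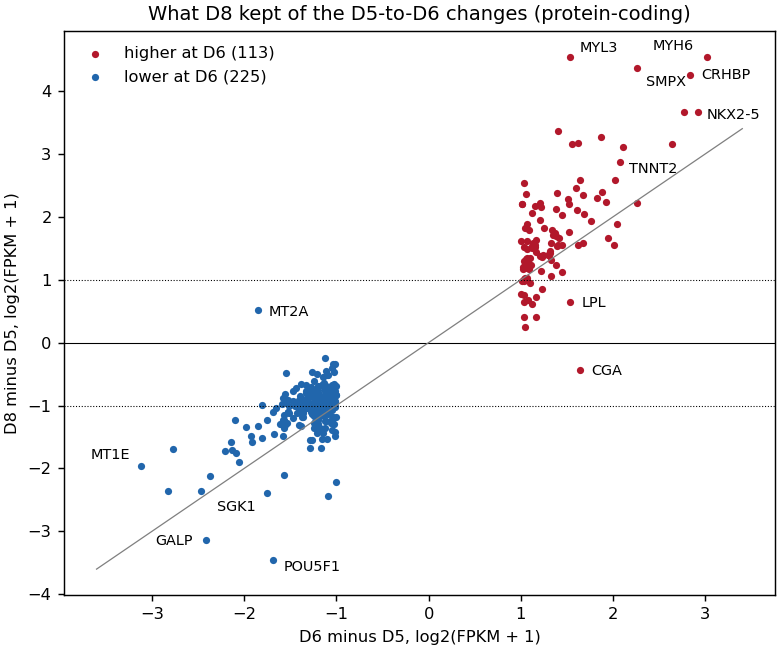
Each point is a protein-coding gene called at D6, without the alternating entries: the D6-minus-D5 difference (horizontal axis) against the D8-minus-D5 difference (vertical axis), both in log2(FPKM + 1). The grey line marks equal differences and the dotted lines 2-fold. Higher genes such as MYH6 and MYL3 lie above the grey line, CGA lies below 0, and many lower genes lie between -1 and 0.

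Across 7 lists of heart machinery and regulators, 80 of 146 genes were measured. Of these 23 were higher at D6 (28.8%, against 1.18% of all measured protein-coding genes) and 2 were lower, with a median difference of 0.41 against 0.12. D8 kept 22 of the 23, and 10 of them had under 5 FPKM at D5. With the median rescaling 21 were higher, and with division by summed protein-coding FPKM 19.

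The cardiac transcription factors were the first layer. Of 30 listed, 23 were measured, 7 were higher, none was lower by 2-fold, and the median difference was 0.60. D8 kept all 7. After NKX2-5 came MEF2C, a MADS-box factor of muscle genes, with 45.2 FPKM at D6 against 14.1 at D5 and 43.4 at D8 (difference 1.61). SMYD1, a muscle methyltransferase needed for ventricle growth in mice, had 26.4 FPKM at D6 against 8.57 at D5 and 31.3 at D8 (1.52). ISL1, the LIM homeobox factor of second heart field progenitors, had 20.6 FPKM at D6 against 7.21 at D5 and 23.1 at D8 (1.40), and was at 2.71 in day 31 cardiomyocytes. HAND2, a bHLH factor of the right ventricle and outflow tract, had 22.1 FPKM at D6 against 7.87 at D5 and 37.6 at D8 (1.38). The nuclear receptor NR2F2, a regulator of atrial identity, had a difference of 1.15, and GATA5 one of 1.06. NR2F2 kept its call under the median rescaling, which GATA5 did not, and neither kept it under division by the summed protein-coding FPKM. GATA4 and TBX5, already up at D5, stayed under 2-fold between D5 and D6. GATA4 had 58.5 FPKM at D6, 40.2 at D5 and 12.7 at D4. TBX5 had 20.3 FPKM at D6, 12.9 at D5 and 1.01 at D4. An earlier rise did not always go with a smaller difference: MEF2C was at 2.55 FPKM at D4, and its D5-minus-D4 difference was 2.09. HAND1 had 36.5 FPKM at D6 against 36.7 at D5.

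Among thick filament genes, 3 of 7 measured (13 listed) were higher and none lower by 2-fold. Besides MYH6 these were MYL4, the atrial light chain, with 345 FPKM at D6 against 107 at D5 and 548 at D8, and MYL3, the ventricular light chain, with 8.19 FPKM at D6 against 2.17 at D5. MYL3 reached 72.7 FPKM at D8, a D8-minus-D6 difference of 3.00, so most of its gain came after D6. MYL7, the other atrial light chain, was at 392 FPKM at D6 against 221 at D5 (0.82) and 1380 at D8.

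Among thin filament genes, 4 of 13 measured (20 listed) were higher and 1 was lower. Genes of each subunit of the troponin complex were higher, TNNT2 as given above. TNNI1, the embryonic inhibitory subunit, had 222 FPKM at D6 against 59.8 at D5 and 318 at D8. TNNC1, the calcium-binding subunit, had 48.9 FPKM at D6 against 16 at D5 and 151 at D8. ACTA2, the smooth muscle actin that early heart muscle also carries, had 119 FPKM at D6 against 57.6 at D5 (1.03) and was not called under either rescaling. ACTC1, cardiac actin, had 99.3 FPKM at D6 against 54.6 at D5 (0.85). NEB, the giant nebulin of thin filaments, was lower, at 1.5 FPKM at D6 against 6.15 at D5 and 2.29 at D8.

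**Figure D3:**
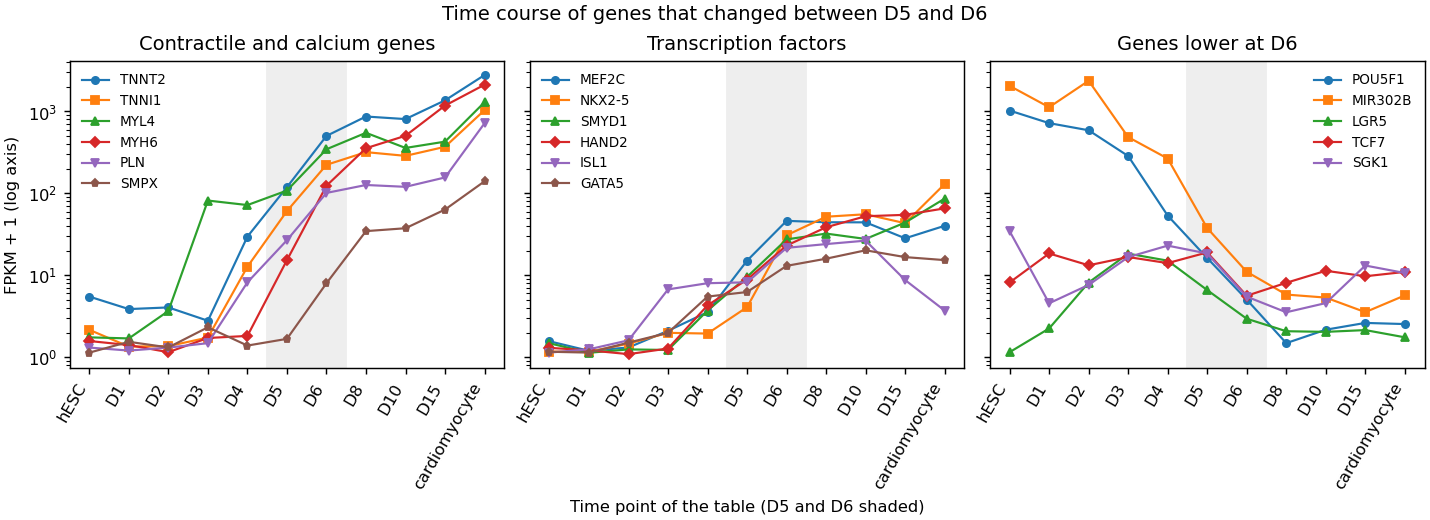
FPKM + 1 on a log axis over the 11 time points of the table, with D5 and D6 shaded, for contractile and calcium genes (left), transcription factors (middle) and genes lower at D6 (right). MYH6 stands at 123 FPKM at D6 and 355 at D8, MEF2C at 45.2 and 43.4, and POU5F1 at 4.05 and 0.486.

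At the Z-disc and M-band, 2 of 13 measured genes (31 listed) were higher, and the median difference was -0.07. The 2 were SMPX, a small muscle protein, with 7.00 FPKM at D6 against 0.675 at D5 and 33.6 at D8, and UNC45B, the myosin chaperone, with 12.8 FPKM at D6 against 3.56 at D5 and 23.9 at D8. TTN, the titin spring, had 57.8 FPKM at D6 against 40.1 at D5 and 133 at D8. NEXN, an actin-binding protein of the Z-disc, lay below 0 (difference -0.90) and crossed 2-fold under both rescalings.

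Of 15 measured calcium handling genes (23 listed), 4 were higher, all kept at D8 and called under both rescalings. PLN, phospholamban, the brake on the SERCA calcium pump, had 100.3 FPKM at D6 against 25.8 at D5 and 126 at D8. SLN, sarcolipin, a related pump inhibitor of the atrium, had 6.55 FPKM at D6 against 0.581 at D5 and 6.4 at D8. TRDN, triadin of the calcium release complex, had 6.79 FPKM at D6 against 1.13 at D5 and 19.5 at D8. SLC8A1, the sodium-calcium exchanger, had 50.1 FPKM at D6 against 17.8 at D5 and 75.7 at D8. The large channels lay below D5: RYR2, the release channel, had 6.23 FPKM at D6 against 8.05 at D5, and CACNA1C, the L-type channel, 4.34 at D6 against 9.31 at D5. CACNA1C was called lower under both rescalings.

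Of 5 measured ion channel genes (22 listed), KCNA5, an atrial potassium channel, was higher, with 14.2 FPKM at D6 against 2.93 at D5 and 11.4 at D8. ABCC9, a subunit of the ATP-sensitive potassium channel, was lower, with 3.27 FPKM at D6 against 10.3 at D5. Of 4 measured natriuretic peptide genes (7 listed), NPPA and CORIN were higher; NPPA, the atrial natriuretic peptide, had 9.06 FPKM at D6 against 2.79 at D5 and 38.2 at D8. NPPB, the B-type peptide, had 42.0 FPKM at D6 against 51.2 at D5. None of the 13 measured genes of the intercalated disc reached 2-fold in either direction (median 0.07).

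Muscle energy genes had a median of 0.57, with 3 of 14 measured higher and none lower by 2-fold. Besides LPL these were ACSL1, a fatty acyl-CoA ligase, with 16.4 FPKM at both D6 and D8 against 5.98 at D5, and ESRRG, a nuclear receptor of oxidative metabolism, which lay at the edge of the threshold (5.26 FPKM at D6 against 2.13 at D5). Of 20 measured glycolysis genes, 18 lay above 0, with a median of 0.54. PDK1, which holds pyruvate out of the mitochondrion, had 86.6 FPKM at D6 against 39.1 at D5 and 119 at D8. TXNIP, a brake on glucose uptake, had 59.2 FPKM at D6 against 25.9 at D5 and 82.7 at D8. Neither call stood under division by summed protein-coding FPKM.

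**Figure D4:**
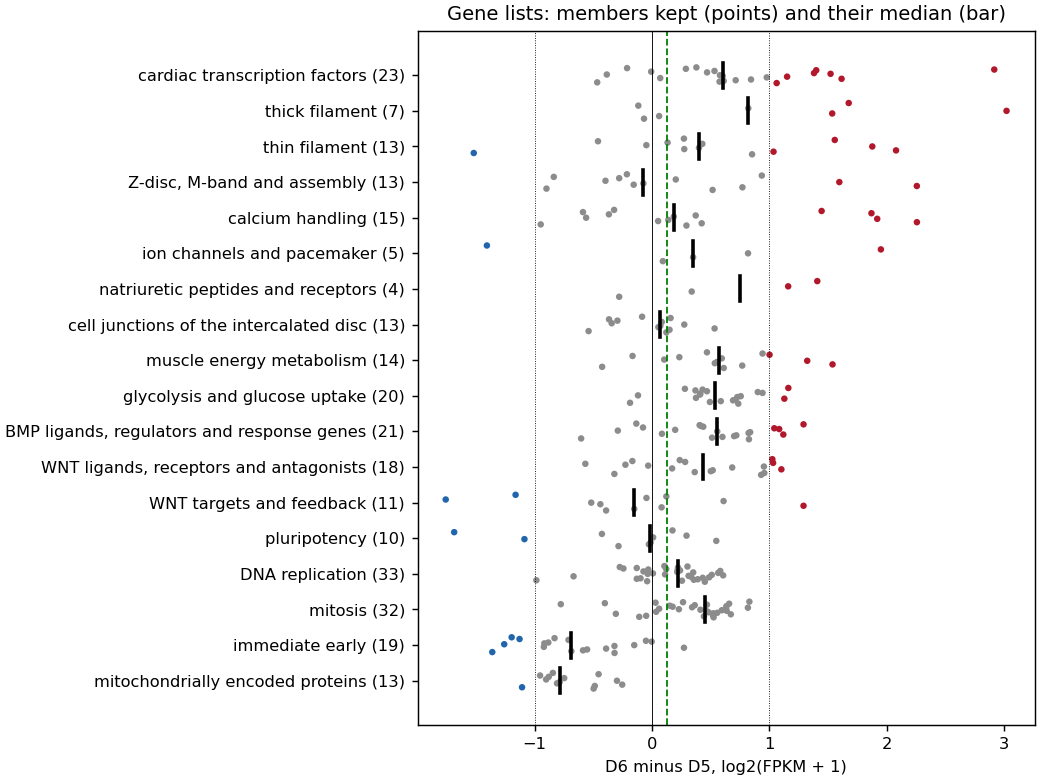
D6-minus-D5 difference in log2(FPKM + 1) for the measured members of 18 gene lists (numbers in brackets); red and blue points passed 2-fold, black bars are medians, the dotted lines mark 2-fold and the green line the median of all measured protein-coding genes, 0.12. NKX2-5 (2.91) and MYH6 (3.02) lead the factors and the thick filament genes, and all mitochondrially encoded genes lie below 0.

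Of 21 measured genes of the BMP pathway, 17 lay above 0 (median 0.55) and 4 were higher: the ligands BMP2 (33.3 FPKM at D6 against 15.7 at D5) and BMP7 (15.3 against 6.70), and the inhibitors BAMBI (195 against 79.3) and FST (14.2 against 5.99). BAMBI was the 1 of these that passed under both rescalings, and D8 kept FST in part. Of 18 measured WNT ligands, receptors and antagonists, 3 were higher, namely the ligand WNT2 (31.4 FPKM at D6 against 14.1 at D5) and the secreted antagonists SFRP1 (157 against 76.4) and FRZB (5.73 against 2.31), and none of the 3 passed under the rescalings. Of 11 measured WNT target and feedback genes, 4 lay above 0 (median -0.15). BAMBI, which is also on this list, was the 1 called higher, and 2 were lower. TCF7, a transcription factor of the pathway, was lower, with 4.63 FPKM at D6 against 18 at D5 and 7.10 at D8. LGR5, the R-spondin receptor, was lower too, with 14.1, 5.6, 1.95 and 1.08 FPKM at D4, D5, D6 and D8. AXIN2, the negative feedback gene, had 8.09 FPKM at D6 against 9.10 at D5. Of 10 measured NOTCH genes, the targets HEY1 (69.3 FPKM at D6 against 26.0 at D5) and HES4 (11.1 against 4.88) were higher; HES4 was not called under the rescalings. None of 16 measured FGF genes reached 2-fold.

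Cell cycle genes stayed within 2-fold, apart from 2 inhibitors. None of 33 measured DNA replication genes and none of 32 mitosis genes reached 2-fold, with medians of 0.22 and 0.45. The inhibitors CDKN1C (25.2 FPKM at D6 against 11.1 at D5) and CDKN1B (24.5 against 11.2) were higher and kept at D8, but neither call stood under the rescalings. Of 15 measured imprinted genes (median 0.35), CDKN1C and DLK1 were higher and KCNQ1OT1 was lower. DLK1, a NOTCH-like growth regulator, had 33.1 FPKM at D6 against 9.94 at D5 and 64.4 at D8. Of 35 measured matrix genes, 2 were higher and none was lower by 2-fold, with a median of 0.15. The 2 were GPC3, a glypican, with 218 FPKM at D6 against 76.2 at D5 and 375 at D8, and DCN, decorin, with 10.7 against 2.82 and 15.4 at D8.

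Lists of other cell types differed in how many members were measured. Of 26 endothelial genes, 3 were measured and none reached 2-fold; CDH5, which defines endothelium, had 1.03 FPKM at D6 against 1.19 at D5. No skeletal muscle or paraxial gene was measured, and MYOD1 was listed at 0 at both D6 and D5. Of 9 measured epicardial genes none reached 2-fold (median 0.39). Of 19 measured smooth muscle and fibroblast genes (21 listed), ACTA2 and DCN were higher, with a list median of 0.19. Of 6 measured neural genes (20 listed), TUBB3, an alternating entry described further on, was called higher and 2 were lower. Of 15 blood genes listed, 1 was measured and it stayed under 2-fold. Of 8 measured endoderm and liver genes (26 listed), 6 lay above 0, with a median of 0.53. AFP, alpha-fetoprotein, was the 1 called higher, with 19.2 FPKM at D6 against 6.98 at D5 and 26.6 at D8. The endoderm factors FOXA2 (2.64 FPKM at D6 against 2.70 at D5) and SOX17 (0.0627 against 0.41) lay below the threshold of 5. The summed FPKM of the endoderm list was 127 at D6 against 96.0 at D5, and of the endothelial list 100.4 against 94.5. Whether such cells had a part in these differences was not tested.

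Of the 15 largest protein-coding decreases that were not at D5 or D6 alone, D8 kept 14, and kept WDPCP, a planar polarity and cilium gene, in part (8.82 FPKM at D6 against 28.5 at D5 and 13.9 at D8). Of 10 measured pluripotency genes 2 were lower, 4 lay above 0, and the median was -0.02. POU5F1, the pluripotency factor OCT4, was lower, with 52.5, 15.2, 4.05 and 0.486 FPKM at D4, D5, D6 and D8, against 1026 in stem cells. ZIC2, a zinc finger factor of pluripotent and neural cells, had 2.38 FPKM at D6 against 5.78 at D5 and lay just past the threshold. LIN28A, an RNA-binding protein of pluripotent cells, had 280 FPKM at D6 against 228 at D5.

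The microRNA gene MIR302B was lower too, with 265, 36.7, 10.0 and 4.82 FPKM at D4, D5, D6 and D8 (D6 minus D5 -1.77), against 2054 in stem cells. The miR-302 family is abundant in human pluripotent cells and promotes their fast cell cycle. The entry does not tell the 2 mature arms apart, and RNA of this size is poorly captured by libraries of fragmented total RNA. Its values are therefore not read as levels of the mature microRNA. Whether the reads came from the microRNA itself or from a longer transcript of the gene is not given in the sources used here. The mature sequences, from RefSeq (GRCh38.p14, minus strand of chromosome 4), are shown because the seed, bases 2 to 8 in capitals, defines the family.
hsa-miR-302b-3p, chr4:112648489-112648511: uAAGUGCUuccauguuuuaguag
hsa-miR-302b-5p, chr4:112648526-112648547: aCUUUAACauggaagugcuuuc

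MT1E and MT1G, metallothioneins that bind metal ions, were among the 15 decreases counted above. MT1E had 53.2, 10.5, 0.317 and 1.94 FPKM at D4, D5, D6 and D8, and MT1G had 85.2, 5.35, 1.01 and 2.08. MT1X and MT2A, picked after their values were seen, were lower at D6 as well, and MT2A was back to 10.4 FPKM at D8 against 6.98 at D5. These genes are near-copies of each other, so the division of reads among them is uncertain. SGK1, a kinase induced by hormones and stress, had 22, 17.5, 4.49 and 2.54 FPKM. GALP, a galanin-like peptide, had 4.17, 10.6, 1.19 and 0.329 FPKM.

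Immediate early genes, which cells switch on within minutes of a stimulus, were lower as a list: of 19 measured 1 lay above 0, the median was -0.69, and 4 were 2-fold lower. These were EGR3 (3.28 FPKM at D6 against 10.0 at D5), ATF3 (10.5 against 26.4), ZFP36 (3.69 against 9.75) and FOSB (13.7 against 31.1). With the median rescaling 7 of the 19 were 2-fold lower, and with division by summed protein-coding FPKM 8. D8 kept EGR3 and ZFP36 and kept ATF3 and FOSB in part. All 13 mitochondrially encoded protein genes lay below 0 (median -0.79), with MT-ND4L past 2-fold (315 FPKM at D6 against 681 at D5); 4 were 2-fold lower under the median rescaling and 7 under division by summed protein-coding FPKM. Cytosolic ribosomal protein genes lay above 0 (80 of 83 above 0, median 0.37). Replication-dependent histone genes had a median of 0.35, and 58 of 60 lay above 0; with division by summed protein-coding FPKM the medians of these 2 lists were 0.15 and 0.14.

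Other leading decreases had their highest value among D4, D5, D6 and D8 at D5. NPIPB5, of a primate gene family without a settled role, had 54.9, 114, 25.1 and 37.3 FPKM at D4, D5, D6 and D8, and SMG1, the kinase of nonsense-mediated decay, had 87.1, 151, 42.4 and 52.2; both have near-identical copies in the genome. AUTS2, a neuronal chromatin gene, had 33.6, 54.3, 17.1 and 21.6 FPKM. Each was lowest at D6 among these time points. The lower genes were also longer than the higher ones. The median gene span (GENCODE 29) was 23.4 kb for the 115 higher genes, 65.1 kb for the 246 lower ones and 35.5 kb for all measured protein-coding genes. The median D6-minus-D5 difference went from 0.37 in the fifth of genes with the shortest spans (up to 11.7 kb) through 0.25, 0.14 and -0.00 to -0.21 in the fifth with the longest (from 105 kb). The D5-minus-D4 difference ran the other way, from -0.07 to 0.18. Single genes varied widely: of the heart genes that were higher, NKX2-5 spans 3.25 kb and MYH6 26.3 kb, but MEF2C 187 kb, TRDN 421 kb and SLC8A1 514 kb, and of those that were lower, ABCC9 spans 145 kb and NEB 249 kb. The part of gene length in these calls was not tested.

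Of the 246 lower protein-coding genes, 75 were also 2-fold below D4, and 40 differed at D5 alone, meaning that D5 was 2-fold above both D4 and D6 while these differed by less. Of the 115 higher genes, 3 differed at D5 alone, with D5 2-fold below both. Without the alternating entries described next, 20 lower genes and 1 higher gene differed at D5 alone.

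A group of entries, which overlaps the D5-alone genes just counted, alternates through the table. For 29 measured entries, all 6 columns hESC, D1, D3, D5, D8 and D15 stood at least 2-fold above, or all at least 2-fold below, each of the 5 columns D2, D4, D6, D10 and cardiomyocyte. This criterion was set after the values had been seen. All 29 were called, 25 as lower and 4 as higher at D6. CKS1B, a cofactor of cyclin-dependent kinases, had 0, 171, 0.638 and 61.6 FPKM at D4, D5, D6 and D8. PSMA2, a proteasome subunit, had 7.42, 227, 6.62 and 95.8 FPKM. JAG1, a NOTCH ligand, had 0.187, 39.8, 1.46 and 21.6 FPKM. TUBB3, a neuronal tubulin, ran the other way, with 162, 0.115, 207 and 0 FPKM, as did NDUFA7, a subunit of respiratory complex I, with 53.4, 0, 30.1 and 0. Such entries made up 17 of the 20 largest protein-coding decreases (the others were MT1E, DIO1 and F11R) and the 2 largest increases. F11R missed the criterion but also rose and fell with these columns from D1 on. It had 59.1, 10.9, 60.7, 8.01 and 18.1 FPKM at D3, D4, D5, D6 and D8, and no direction is read from it either. The criterion is strict and can leave out other genes with such a course. Without the alternating entries 113 protein-coding genes were higher and 225 lower, of 9737. The values of the alternating entries follow the columns and not the order of days, and no direction is read from them. Why they do so is not given in the sources used here. D4 and D6 stand in one set of columns and D5 and D8 in the other, so every D6-minus-D5 difference in this report also crosses the sets. Whether the columns had a smaller part in the other calls was not tested.

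**Figure D5:**
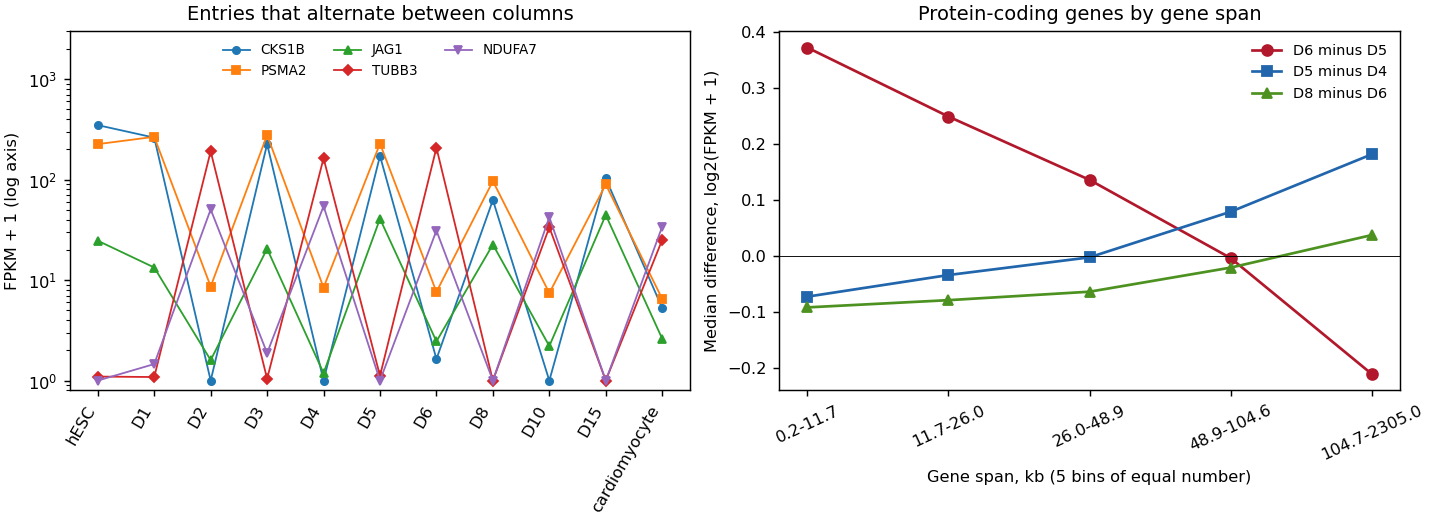
Left: FPKM + 1 on a log axis over the 11 columns for 5 entries that alternate; CKS1B, PSMA2 and JAG1 are high where TUBB3 and NDUFA7 are low. Right: median difference in log2(FPKM + 1) of measured protein-coding genes, alternating entries left out, in 5 bins of gene span; D6 minus D5 falls from 0.37 to -0.21 while D5 minus D4 runs from -0.07 to 0.18 and D8 minus D6 from -0.09 to 0.04.

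Small RNA genes were called more often than protein-coding ones. Of 256 measured, 50 were higher and 105 lower, and 117 were listed at 0 at D6 or D5. D8 kept 14 of the 50 and 90 of the 105, and 76 of the 105 differed at D5 alone. RNU6-930P, an entry of the U6 spliceosomal RNA family, was listed at 21644 FPKM at D5 and at 0 in every other column. SNORA63, a guide for RNA modification, was at 4677 FPKM at D6, listed at 0 at D5 and at 281 at D8. Small RNAs held 35.3% of the summed FPKM at D6 against 42.1% at D5, and protein-coding genes 50.9% against 43.3%. Since FPKM divides by length, these are not shares of reads. The part of this difference in the protein-coding calls was not tested beyond the 2 rescalings given above.

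Many genes of the D6 step also differed in a sort of D4 cells. At D4 the authors compared PDGFRa-positive with PDGFRa-negative cells among ROR2-positive cells, and the authors' deposited table lists genes with a q-value under 0.05. Of the 115 genes higher at D6, the authors' deposited table lists 53 as higher in PDGFRa-positive cells and 22 as lower (46.1% and 19.1%). Of all 9760 measured protein-coding genes the authors' deposited table lists 15% as higher and 12.3% as lower. Of the 246 genes lower at D6 the authors' deposited table lists 9.76% as higher and 23.6% as lower. In the authors' deposited table, TNNT2 had 63.3 FPKM in PDGFRa-positive cells against 3.60 in negative ones, and MEF2C 11.1 against 0.889. The authors' deposited table has POU5F1 at 9.30 FPKM in PDGFRa-positive cells against 63.3 in negative ones. ISL1 and CRIP2 did not share that pattern: in the authors' deposited table ISL1 had 15.8 FPKM in PDGFRa-positive cells against 24.9 in negative ones, and CRIP2 5.04 against 10.9.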

How the data were processed

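RNA was sequenced from 2 libraries at each of 11 time points, and D6 and D5 were compared with D4 and D8 beside them. The authors' deposited table gives 1 FPKM value per gene and time point; its header names only the time points, so the unit rests on the values and on the submitters' processing notes, which name TopHat2 2.0.8b, Bowtie2 2.1.0.0, Cufflinks and hg19. No source used here gives the annotation, the strand setting or the scaling, and the depth per library is unknown. Per the file headers, the authors' D4 sort table holds FPKM, the log2 of the fold change, p-values and q-values.

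Differences are in log2(FPKM + 1), a pseudocount of 1, over genes with at least 5 FPKM at D6 or D5. The planned limma test needs the libraries apart and was not run. Gene types and spans came from GENCODE 29 by name (90.2% of measured entries matched); 16 measured entries bear names a spreadsheet turned into dates. Members and the 48 gene lists were chosen with earlier results of these data known. Named genes are the 20 largest increases and decreases among protein-coding genes, the 15 largest decreases outside D5 or D6 alone, the 5 largest of each direction among other entries, and up to 6 members per list; MT1X, MT2A, CGA and others outside that rule were picked after their values were seen. Genes just inside the threshold were FLRT3 (1.00) and WNK1 (-1.00), and just outside it SUSD4 (1.00) and MTFR2 (-1.00). The code of the calling step was run on simulated data with changes set well past 2-fold. That run did not model the spread between libraries or the alternating columns, so it says nothing on how reliable the calls are. Python 3.11.15, pandas 2.3.3, NumPy 2.4.6 and matplotlib 3.10.9 were used.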

Additional observations from a re-analysis of the deposited data

How the results depend on the processing

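Each count was recomputed under the alternatives. Of the 83 counts so obtained, 58 stayed within 1.5 times the value as reported. Some of the 83 are counts of the leading genes, which were picked for large differences. Dividing by summed protein-coding FPKM gave 122 higher and 841 lower entries, 60 higher and 477 lower protein-coding genes, and 73 higher entries that D8 kept. The median rescaling gave 71 and 391 protein-coding genes. With no filter, or a filter of 1 FPKM, 1343 entries and 412 protein-coding genes were lower, D8 kept 664 lower entries, and 334 entries were lower after a peak at D5 alone. A filter of 10 FPKM gave 343 lower entries, 211 of them kept at D8, and 101 at D5 alone. Among genes above 0 at D4, D5, D6 and D8, 69 entries were at D5 alone. With D4 in place of D5, 616 entries and 457 protein-coding genes were higher; with D8 in place of D6, 434 and 306. Against both D4 and D5, chosen after seeing the data, 163 entries and 75 protein-coding genes were lower. Where the filter or the columns compared changed, the genes tested changed with them; for the scalings the cause was not tested. Under a pseudocount of 0.1 and both rescalings, the differences of the 54 leading genes, alternating entries included, kept their direction and passed 2-fold. These genes were picked for large differences, and the rescalings lower D6 by only 0.15 and 0.21. That they passed is therefore no support for them. A filter leaves a gene's difference as it is. ACTA2, GATA5 and others named with their lists lost their calls under a rescaling. No paired analysis was possible because the 2 libraries of a time point are given as 1 value, and for the same reason no library could be left out. With the depth and the spread between libraries unknown, values near the threshold cannot be told from equal ones.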
